A study of Gallus gallus with 21 samples.

Results

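The vertebrate mitochondrial genome carries genes for a small set of respiratory chain proteins, and 6 of them are described here in the trunk neural tube of chick embryos: COX1, COX2 and COX3, ATP8 and ATP6, and CYTB. They were chosen from the count table by position: the genes on the mitochondrial chromosome with a length of at least 150 bases, 15 in all, were sorted by start, and places 5, 6, 7, 8, 9 and 14 were taken. The 6 genes are a subset of 37 mitochondrial genes and 24356 genes in the table. All 6 passed the filter on low counts and were tested. Messenger RNA had been sequenced from 21 libraries: 9 of the control group (CTRL, genotype WT in the labels) and 12 of embryos given CRISPR/Cas9 constructs against MOXD1 (KO, genotype MOXD1 KO). MOXD1 encodes a relative of the copper enzyme dopamine beta-hydroxylase, and the series' title calls it a gene of the trunk neural crest. Constructs were brought into the neural tube at Hamburger-Hamilton stage 10 to 11 by electroporation on 1 side, so the KO tissue may be a mixture of edited and unedited cells. Embryos with CRISPR/Cas9 constructs then rested for some hours at room temperature, and whether the controls did is not stated. The sources used here do not give the strain of the commercially bought eggs, the stage at collection, the share of edited cells or what the controls received.

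Mitochondria make most of the ATP of a cell by passing electrons along protein complexes of their inner membrane and letting protons flow back through ATP synthase. CYTB is the mitochondrially encoded subunit of complex III, which hands electrons to cytochrome c. COX1, COX2 and COX3 form the core of complex IV, cytochrome c oxidase, which passes them to oxygen. COX1 holds the site where oxygen is reduced, COX2 carries the copper centre that takes electrons from cytochrome c, and COX3 is a core subunit with no redox centre. ATP6 is the subunit of ATP synthase that lines the path of the protons, and ATP8 is a small membrane subunit beside it. In vertebrates the genes of each strand are transcribed as long precursors and cut apart mainly at the transfer RNAs that lie between them. In mammals ATP8 and ATP6 stay together on a shared messenger RNA.

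On the GRCg6a assembly the members lie on the plus strand of the mitochondrial chromosome. COX1 (ENSGALG00000032142) spans 6645 to 8192, a length of 1548 bases, and COX2 (ENSGALG00000032456) spans 8331 to 9014, a length of 684 bases. ATP8 (ENSGALG00000032465) spans 9085 to 9249, 165 bases, and ATP6 (ENSGALG00000041091) spans 9240 to 9923, 684 bases. COX3 (ENSGALG00000035334) spans 9923 to 10706, 784 bases, and CYTB (ENSGALG00000032079) stands apart from the other members at 14893 to 16035, 1143 bases. ATP8 and ATP6 share 10 bases, and ATP6 and COX3 share 1 base. The authors' counting ran without the option for reads on overlapping genes. Fragments that span the junction of ATP8 and ATP6 can thus be missing from the counts of both. The same holds for ATP6 and COX3 at their junction. The table holds no symbols. The names come from the order of the genes, and RefSeq's list for another chicken assembly (GRCg7b) has the same symbol at 13 of 13 protein-coding places. For 5 of the 6 members its length is equal too, and for COX1 it is 1551 bases.

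The CTRL libraries held 16164404 to 21133788 counts each and the KO libraries 16346238 to 20970382, which gave at least 8353 counts for each member in each library. Counting error was therefore small beside the spread between libraries. CTRL replicate 1 and KO replicate 8 stood apart in genes outside the mitochondria. Their log2 differences from the median library had SDs of 0.84 and 0.91, against 0.26 to 0.55 in the other 19 libraries. W chromosome transcripts, a sign of female embryos in birds, made up at least 0.180% of counts in 15 libraries (8 CTRL, 7 KO). They made up at most 0.00455% in 6 libraries (1 CTRL, 5 KO). The control among these 6 was CTRL replicate 9. The 12 measures per library described below were not compared with W share as a covariate. The gene IDs were used without symbols outside the mitochondria. The level of MOXD1, markers of the neural tube and other cell types, and nuclear genes for respiratory subunits were thus not analysed here.

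COX1 was the most abundant of the 6 members and ranked 1 or 2 among all genes by counts in all 21 libraries, with rank 1 in 11 of them. The summed share of the members in all counts ran from 3.55% to 6.82% with a median of 4.60% in the 9 CTRL libraries. In the 12 KO libraries it ran from 3.75% to 8.43% with a median of 4.92%. The lowest share was that of CTRL replicate 9 (95% Wilson interval 3.54% to 3.55%) and the highest that of KO replicate 6 (8.42% to 8.44%), intervals that cover counting error only. The groups overlapped. The mean share was 4.84% ± 1.14 (SD, n = 9) for CTRL against 5.39% ± 1.32 (SD, n = 12) for KO, a difference of 0.551 percentage points, smaller than the SD of either group (exact permutation p = 0.335, adjusted p = 0.401 over 12 measures). Without KO replicate 6 it was 0.275 percentage points (exact permutation p = 0.562). In whole tissue, fewer cells of a type and less RNA per cell cannot be told apart.

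Compared per length, COX1 was highest, COX2, COX3 and ATP6 were close to each other, and CYTB and ATP8 were lower. Median levels over the 21 libraries, in counts scaled to library size (CPM) and divided by gene length (CPM per kb), were 13616 for COX1, 9015 for COX2, 9001 for COX3, 8513 for ATP6, 6265 for CYTB and 4825 for ATP8. COX1 lay above COX2 in 21 of 21 libraries, with a mean log2 difference per length of 0.56 (SD 0.15, n = 21). The order of COX2, COX3 and ATP6 was not settled. COX2 lay above COX3 in 11 of 21 libraries, with a mean log2 difference of 0.025 and an SD of 0.11. COX3 lay above ATP6 in 13 of 21 libraries, with a mean log2 difference of 0.013 and an SD of 0.20. ATP6 lay above CYTB in 21 of 21 libraries, with a mean log2 difference of 0.51 and an SD of 0.39. CYTB lay above ATP8 in 19 of 21, with a mean log2 difference of 0.36 and an SD of 0.36. Over the 21 libraries the mean difference of CYTB and ATP8 was thus no larger than the SD of single libraries. That of ATP6 and CYTB was larger than its SD. Such an SD is not the error of a mean, so it does not settle whether a pair differs. Much of the spread of both pairs came from CTRL replicate 3. Without it the SD was 0.23 for CYTB with ATP8 and 0.19 for ATP6 with CYTB. Counted over the 155 bases of ATP8 that it shares with no other gene, its median was 5136 CPM per kb and its place was still the lowest. In that count the mean log2 difference of CYTB to ATP8 was 0.27, and that of COX3 to ATP6 was -0.0085. A fragment longer than those bases can still reach ATP6 and be left out, and how many were lost was not tested.

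**Figure D1:**
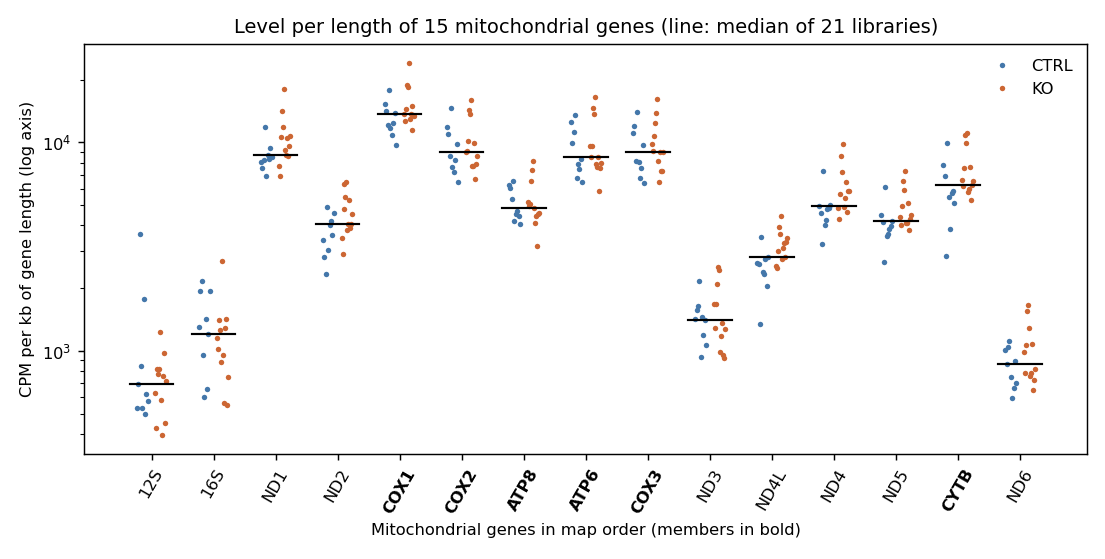
Level of the 15 mitochondrial genes of at least 150 bases, in CPM per kb of gene length on a log axis, in map order; each point is a library (blue CTRL, orange KO) and each line the median of 21 libraries. COX1 has the highest median, 13616 CPM per kb, and the 12S rRNA gene the lowest, 692 CPM per kb.

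Among all 15 genes, the medians of COX1, COX2 and COX3 took places 1 to 3, ahead of ND1, a subunit of complex I, at 8724 CPM per kb. ATP6 was at place 5 and CYTB at place 6. By annotated length ATP8 was at place 8, between the complex I subunits ND4 at 4981 and ND5 at 4189 CPM per kb. This place can depend on the length used, since over its 155 unshared bases ATP8 stood at 5136 CPM per kb. The 16S and 12S ribosomal RNA genes stood at 1202 and 692 CPM per kb, after a poly(A) kit that captures ribosomal RNA poorly, so these are no measure of ribosomal RNA in the cells. By counts alone, the members other than ATP8 stayed within ranks 1 to 18 of all genes in every library. ATP8, the shortest, ranged from rank 48 to 239.

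The 3 cytochrome c oxidase genes overlapped between the groups, and the highest libraries of the KO group were the same for all of them. COX1 in CTRL ran from 15093 to 27755 CPM with a median of 19080.5 CPM, and in KO from 17792 to 37350.2 CPM with a median of 21145.5 CPM. KO replicates 4, 5 and 6 lay above the highest control, CTRL replicate 4, while the remaining 9 stayed inside the control range, at 17792 to 23213.5 CPM. KO replicates 4, 5 and 6 also had the highest shares of all mitochondrial genes in counts, at 11.5%, 11.1% and 14.3%. CTRL replicate 4 followed at 11.0%. In 11 of 12 KO libraries COX1 was above the CTRL median. The log2 change of COX1 was 0.21 (SE 0.14, edgeR quasi-likelihood test, adjusted p = 0.755), a fold of 1.16 with a 95% interval of 0.950 to 1.42.

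COX2 ran from 4421 to 10008 CPM in CTRL with a median of 5897 CPM, and from 4590.0 to 10889.7 CPM in KO with a median of 6195 CPM. Of the KO libraries only replicate 6 was above the highest control, and 8 of 12 were above the CTRL median. COX3 ran from 4994 to 10905.5 CPM in CTRL with a median of 6365 CPM, and from 5042 to 12708 CPM in KO with a median of 7095 CPM. Again KO replicate 6 alone exceeded the controls. Neither gene passed the test, with log2 changes of 0.082 (SE 0.17, edgeR adjusted p = 0.951) for COX2 and 0.094 (SE 0.17, edgeR adjusted p = 0.942) for COX3. The 95% intervals were 0.826 to 1.35-fold for COX2 and 0.832 to 1.37-fold for COX3. Single libraries moved these estimates: the log2 changes were 0.018 and 0.024 without KO replicate 6, and 0.21 for each gene without CTRL replicate 4.

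By edgeR with group as the only term, the ATP synthase genes had the smallest log2 changes of the 6 members. For ATP6 this place was not stable. With the log2 W share as covariate ATP6 stood at 0.14, above COX2 at 0.13 and COX3 at 0.12. ATP6 ran from 4434 to 9252 CPM in CTRL with a median of 5713 CPM, and from 4013 to 11284.5 CPM in KO with a median of 5824 CPM. ATP8 ran from 673 to 1073 CPM in CTRL with a median of 775 CPM, and from 527 to 1340.3 CPM in KO with a median of 807 CPM. For each of these genes KO replicates 4, 5 and 6 lay above all controls and KO replicate 10 lay below all controls. The log2 change was 0.072 (SE 0.19, edgeR adjusted p = 0.959) for ATP6, with a 95% interval of 0.805 to 1.37-fold. For ATP8 it was 0.035 (SE 0.14, edgeR adjusted p = 0.978), with a 95% interval of 0.832 to 1.26-fold. Without KO replicate 6 the log2 changes were -0.0060 for ATP6 and -0.026 for ATP8, so no direction is drawn for them.

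CYTB had the largest log2 change of the 6 members and the widest spread over the 21 libraries, with an SD of log2 CPM of 0.47. Its SD was 0.53 within CTRL, where CTRL replicate 3 was lowest, and 0.37 within KO, below those of ATP8, COX2, COX3 and ATP6. Whether CYTB stays the most variable member without CTRL replicate 3 was not tested. In CTRL it ran from 3277 to 11348 CPM with a median of 6572 CPM, and in KO from 6040.5 to 12699 CPM with a median of 7518 CPM. CTRL replicates 3, 6 and 9, at 3277, 4392 and 5828 CPM, lay below every KO library, and KO replicates 4 and 6 lay above every control. In 11 of 12 KO libraries CYTB was above the CTRL median. The log2 change was 0.33 (SE 0.19, edgeR adjusted p = 0.728), a fold of 1.26 with a 95% interval of 0.955 to 1.65.

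**Figure D2:**
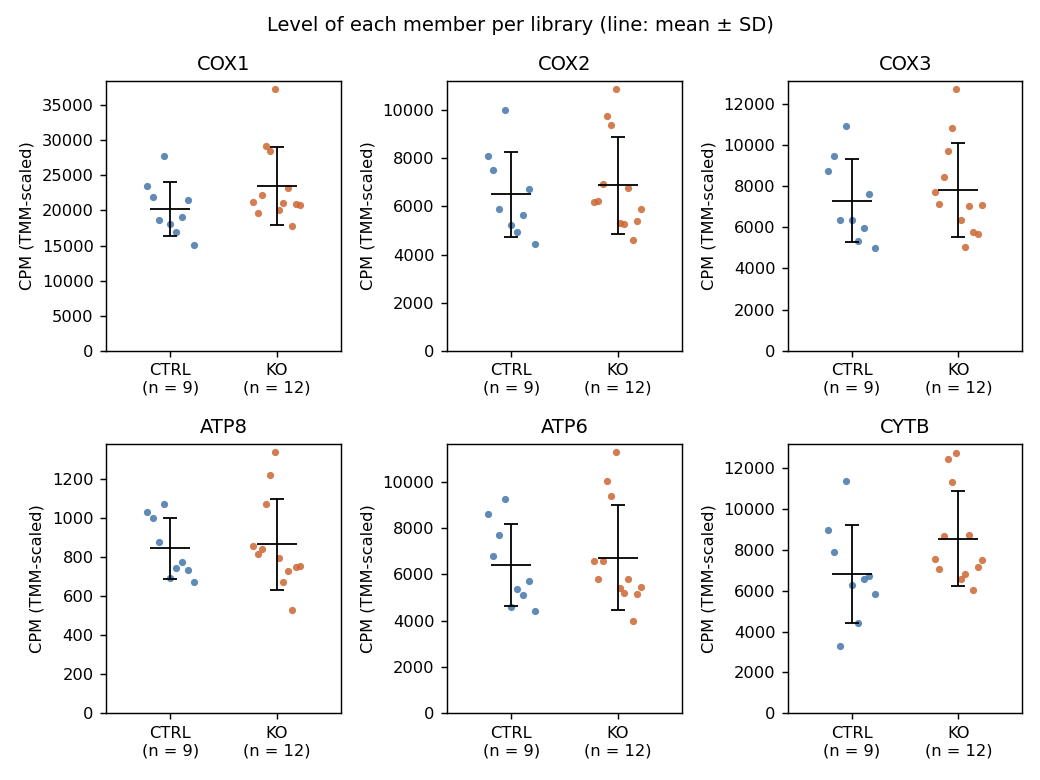
Level of each member in CPM (on TMM-scaled library sizes) in the 9 CTRL and 12 KO libraries; points are libraries, lines the group mean ± SD, and each axis starts at 0. The groups overlap for every member, and for COX1 the highest points are KO replicates 4, 5 and 6, up to 37350.2 CPM.

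None of the 6 members passed the threshold of 0.05 on adjusted p, and neither did any of the 13809 genes tested (0%). By edgeR 0 members and 977 genes had an unadjusted p under 0.05. DESeq2 also called 0 genes and had 1330 at that level. All 6 members had a positive log2 change, with a median of 0.088, against a median of -0.016 and 46.8% positive over all genes tested. The members vary together from library to library, so these 6 signs are not independent of each other. Without KO replicate 6 the median of the members was 0.021, and without CTRL replicate 4 it was 0.21. Across the members, the 95% intervals reached from 0.805-fold (ATP6) to 1.65-fold (CYTB). Without CTRL replicate 1 and KO replicate 8 the median log2 change was 0.18, with no member called (lowest adjusted p = 0.808). With the log2 W share as covariate it was 0.13, again with no member called (lowest adjusted p = 0.946).

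The other mitochondrial genes did not pass either. The 7 complex I subunits all had positive log2 changes, with a median of 0.29 and a range from 0.10 for ND3 to 0.38 for ND4L. Of these, 3 (ND2, ND4L and ND4) had an unadjusted p under 0.05 with a higher level in KO, where 2.58% of all genes tested did, and none had one with a lower level, where 4.5% did. The lowest edgeR adjusted p of the 7 was 0.704. These 7 genes were measured in the same libraries, so the 3 are not independent of each other. Log2 changes of the 12S and 16S ribosomal RNA genes were -0.60 (SE 0.33, edgeR adjusted p = 0.721) and -0.22 (SE 0.27, edgeR adjusted p = 0.896). For 12S the medians lay the other way, at 605 CPM in CTRL and 723 CPM in KO, and CTRL replicates 3 and 6 stood highest, at 3567 and 1737 CPM. Of the 22 genes shorter than 150 bases, 10 passed the filter on low counts, with a median log2 change of 0.21 and 0 called by edgeR, 0 of them at an unadjusted p under 0.05.

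**Figure D3:**
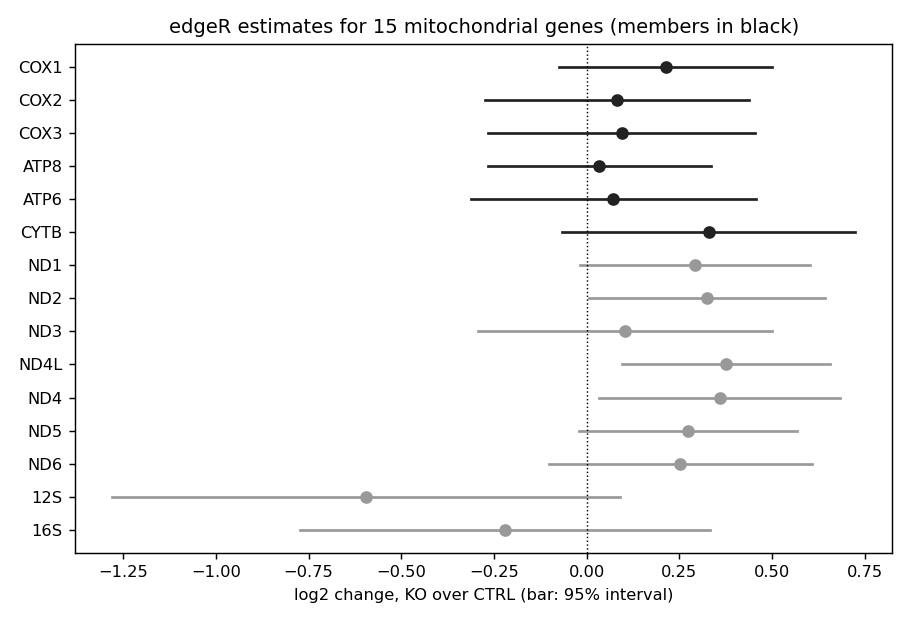
Log2 change of KO over CTRL for 15 mitochondrial genes from edgeR, with 95% intervals; the 6 members are in black and the other genes in grey. The members lie between 0.035 (ATP8) and 0.33 (CYTB), and each of their intervals includes 0.

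The members moved together between libraries. Over the 21 libraries the SD of log2 CPM ran from 0.30 for COX1 to 0.47 for CYTB, while the SD of the log2 ratio between members had a median of 0.18 over the 15 pairs. In 14 of the 15 pairs the ratio varied less than either gene alone, the exception being ATP8 with CYTB. COX2 and COX3, on either side of the ATP synthase genes, had the steadiest ratio, with an SD of 0.11. COX2 with ATP6, COX1 with COX2, and ATP8 with ATP6 followed at 0.14, 0.15 and 0.15. The 10 pairs without CYTB had SDs up to 0.22, and the 5 pairs with CYTB ran from 0.27 (COX1) to 0.39 (ATP6). Within the 12 KO libraries the ratios with CYTB had SDs of 0.068 (COX2) to 0.17 (ATP8), against 0.35 (COX3) to 0.53 (ATP6) in the 9 CTRL libraries. Much of this came from CTRL replicate 3. Without it the pairs with CYTB had SDs over the other 20 libraries of 0.15 (COX2) to 0.23 (ATP8), and the CTRL SD of the log2 ratio of CYTB to COX1 went from 0.38 to 0.21. For comparison, the 69 non-mitochondrial genes averaging 1000 CPM or more had a median SD of log2 CPM of 0.30. The median SD of the members was 0.38. Of the 69 genes, 49.3% varied less than COX1, the steadiest member. CYTB, the most variable over the 21 libraries but not within the KO group, varied more than 72.5% of them.

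CYTB lay closest to complex I subunits, and this rested on CTRL replicate 3. By the SD of the log2 ratio over the 21 libraries, the 2 nearest of the other mitochondrial messenger RNAs were ND5 (0.19) and ND4 (0.22), with COX1 at 0.27. Without CTRL replicate 3 the nearest was COX2 at 0.15, followed by ND6 and COX1, each at 0.16. For the other members the nearest gene was another member: COX2 for COX1, COX3 and ATP6, COX3 for COX2, and ATP6 for ATP8. Without CTRL replicate 3 these stayed the nearest except that ND5 was nearest to COX1, at 0.13, and ATP6 to COX2, at 0.11.

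CTRL replicate 3 had an unusual balance along the mitochondrial genome. Its COX1 level of 18663 CPM lay inside the range of the other controls. Relative to COX1, its CYTB was 0.491 times the median of the other 20 libraries, below the lowest of them. ATP6 and ATP8, at 1.40 and 1.22 times that median, were above the highest of them, and COX2 and COX3 were at 1.08 and 1.00 times. ND4L, ND4 and ND5, which lie between COX3 and CYTB, stood at 0.534, 0.686 and 0.690 times the median, and ND2 at 0.653 times, each below the other 20 libraries. Not all genes of that stretch were low: ND3, also between COX3 and CYTB, stood at 1.34 times the median. Outside that stretch, ND6, past CYTB and on the minus strand, stood at 1.41 times. The same library had the highest 12S level of all, 3567 CPM, where the median library had 675 CPM. CTRL replicate 6 was next in both respects, with CYTB relative to COX1 at 0.729 times the median and 12S relative to COX1 at 3.56 times. What gave this balance was not tested.

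**Figure D4:**
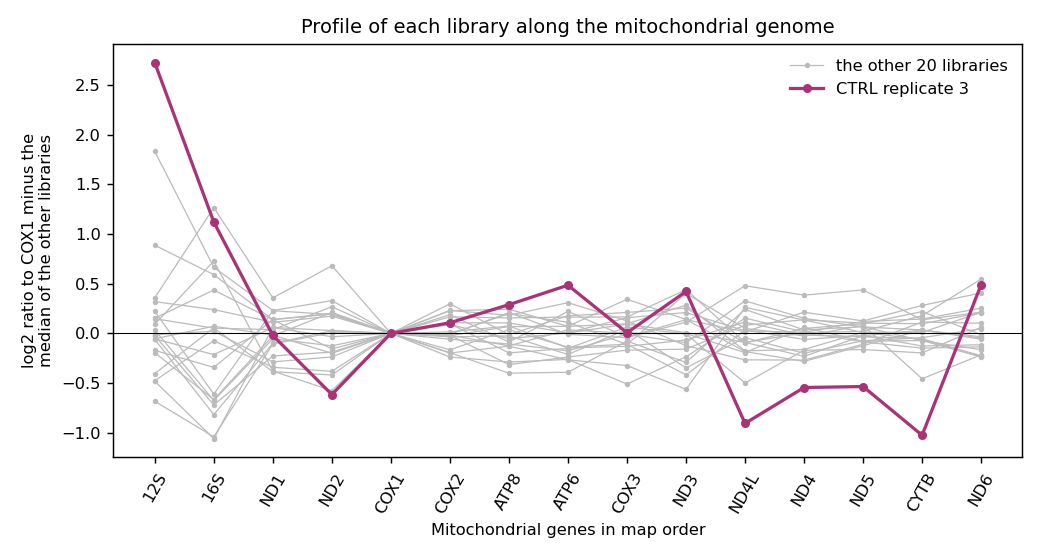
Log2 ratio of each mitochondrial gene to COX1 in a library, minus the median of that ratio in the other 20 libraries, in map order; a line is a library, and COX1 is at 0 by construction. CTRL replicate 3 (purple) stands at -1.03 for CYTB and 2.72 for 12S.

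Ratios within a library do not depend on its size, so they were used to ask whether the balance between the members differed between the groups. The ratio of COX2 to COX1 counts had the clearest group difference among the cytochrome oxidase genes and did not pass. It lay between 0.288 and 0.361 in CTRL libraries, while the KO libraries spanned 0.250 to 0.334. KO replicates 7, 8, 10, 11 and 12 lay below all controls, and the rest overlapped. The mean log2 ratio was -1.66 ± 0.12 (SD, n = 9) for CTRL against -1.79 ± 0.14 (SD, n = 12) for KO, a difference of -0.13 (exact permutation p = 0.0418, adjusted p = 0.251 over 12 measures). In the KO group 9 of 12 libraries lay under the median of the controls. Without CTRL replicate 1 and KO replicate 8 the difference was -0.095 (exact permutation p = 0.126). COX3 relative to COX1 differed by -0.12 on the log2 scale (exact permutation p = 0.166, adjusted p = 0.269), and by -0.074 without KO replicate 8. COX3 relative to COX2 differed by 0.015 (exact permutation p = 0.774, adjusted p = 0.774).

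For the ATP synthase genes, the log2 ratio of ATP6 to COX1 counts averaged -1.69 ± 0.23 (SD, n = 9) for CTRL against -1.84 ± 0.19 (SD, n = 12) for KO (exact permutation p = 0.113, adjusted p = 0.269). KO replicates 8, 9, 10 and 11 lay below all controls. Counts of ATP8 were 0.114 to 0.152 times those of ATP6 in CTRL and 0.107 to 0.147 times in KO. The mean log2 ratios of this pair were -2.89 ± 0.17 (SD, n = 9) and -2.94 ± 0.13 (SD, n = 12), which overlapped (exact permutation p = 0.516, adjusted p = 0.563). Both ATP synthase genes over the 3 cytochrome oxidase genes gave a difference of -0.11 on the log2 scale (exact permutation p = 0.158, adjusted p = 0.269). Without CTRL replicate 3 this was -0.060, and the difference for ATP6 over COX1 was -0.10 in place of -0.15.

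CYTB relative to the summed cytochrome oxidase genes had the smallest unadjusted p of the 12 measures, and it depended most on CTRL replicate 3. The log2 ratio ran from -3.24 to -2.07 with a median of -2.24 in CTRL libraries, and from -2.27 to -1.97 with a median of -2.19 in KO. CTRL replicate 3 was the lowest, and CTRL replicates 6, 8 and 2, at -2.63, -2.42 and -2.30, were also below every KO library. The mean was -2.38 ± 0.36 (SD, n = 9) for CTRL against -2.17 ± 0.087 (SD, n = 12) for KO, a difference of 0.21 that did not pass (exact permutation p = 0.0317, adjusted p = 0.251). In the KO group 10 of 12 libraries were above the median of the controls, but the difference of the medians was 0.049 (exact permutation p = 0.272). Without CTRL replicate 3 the CTRL mean was -2.27 ± 0.18 (SD, n = 8) and the difference was 0.10 (exact permutation p = 0.106, adjusted p = 0.486). Other libraries moved it too. The difference was 0.18 without CTRL replicate 6 (exact permutation p = 0.0714, adjusted p = 0.279) and 0.25 without CTRL replicate 9 (exact permutation p = 0.0100, adjusted p = 0.0996). CYTB relative to COX1 alone differed by 0.16 (exact permutation p = 0.178, adjusted p = 0.269), and by 0.054 without CTRL replicate 3.

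**Figure D5:**
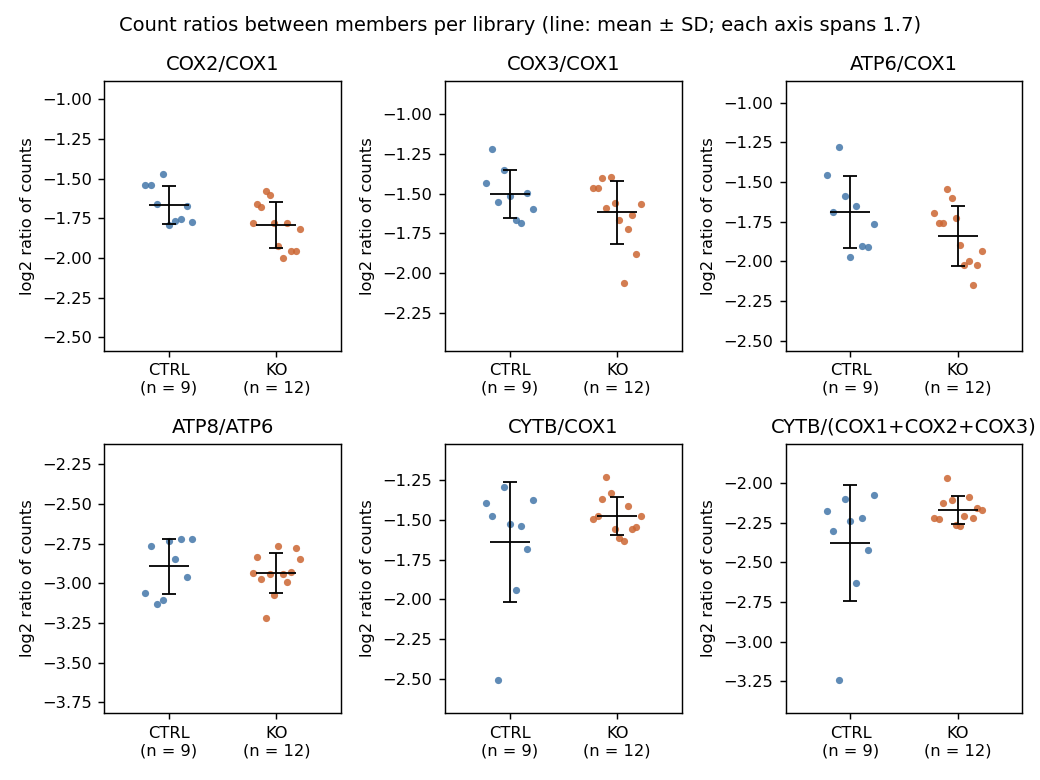
Log2 ratios of counts between members in the 9 CTRL and 12 KO libraries; points are libraries, lines the group mean ± SD, and each axis spans the same log2 range. For CYTB over the summed cytochrome oxidase genes, CTRL replicate 3 lies at -3.24 and the other 20 libraries between -2.63 and -1.97.

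Against the rest of the mitochondrial genome, the 6 members made up 63.0% ± 4.33 (SD, n = 9) of the counts of the 13 messenger RNAs for CTRL against 61.1% ± 2.25 (SD, n = 12) for KO (exact permutation p = 0.202, adjusted p = 0.269). This share spanned 54.9% to 67.8% in CTRL libraries against 58.7% to 65.6% in KO, so the KO range lay inside that of the controls. Of the KO libraries, 10 of 12 lay under the CTRL median. The medians differed by -2.89 percentage points (exact permutation p = 0.135). The log2 ratio of the members to the complex I subunits differed by -0.12 (exact permutation p = 0.188, adjusted p = 0.269). Single libraries moved this difference. Without CTRL replicate 9, the control with the low W share, it was -0.18 (exact permutation p = 0.0292, adjusted p = 0.0996). Without CTRL replicate 2 it was -0.084 (exact permutation p = 0.353, adjusted p = 0.446). The log2 ratio of the members to the ribosomal RNA genes averaged 4.01 ± 0.83 (SD, n = 9) for CTRL against 4.46 ± 0.47 (SD, n = 12) for KO (exact permutation p = 0.131, adjusted p = 0.269). This difference of 0.45 was 0.27 without CTRL replicate 3 and 0.19 between the medians. Within the members, COX1 made up 39.5% to 47.8% of their counts over the 21 libraries, COX3 11.4% to 17.3% and COX2 11.9% to 14.2%. CYTB made up 7.66% to 17.3% and ATP8 1.36% to 2.06%. ATP6 averaged 13.3% ± 2.10 (SD, n = 9) of them for CTRL against 12.2% ± 1.03 (SD, n = 12) for KO.

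The genes most like the members across the 21 libraries were looked for among all other genes tested, by the SD of the difference between their log2 CPM and the mean log2 CPM of the 6 members. The nearest mitochondrial genes were ND5 and ND6, each with an SD of 0.20. Outside the mitochondria, the nearest of 9313 genes averaging 10 CPM or more were ENSGALG00000007350 on chromosome 5, at a mean of 41.4 CPM, and ENSGALG00000035223 on chromosome 1, at 33.9 CPM. Each of these had an SD of 0.18, while the median SD of the 9313 genes was 0.48. They were chosen as the smallest of many values, so this likeness is a description of these libraries.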

How the data were processed

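The authors deposited a table of raw counts, a column for each library, and gene lengths in bases. Per the file headers, featureCounts 2.0.1 counted fragments over the exons of each gene (Ensembl release 101, GRCg6a) on the reverse strand, taking a read pair as a fragment, without the options for multi-mapping or multi-overlapping reads. Fragments that also match nuclear copies of mitochondrial DNA may thus be missing, which was not tested. The submitters' processing notes also name STAR, DESeq2, bcl2fastq, MultiQC and FastQC, with no settings. Per the labels' protocols, libraries came from 50 ng of total RNA by a stranded poly(A) kit with 14 final PCR cycles. No molecular identifiers are named. Other columns of values per library numbered 0.

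Groups and replicate numbers came from the sample titles; the descriptions number some libraries otherwise. The series' design text counts embryos; no batch, sex or pairing is named, so p-values measure the spread between these samples. Genes were filtered with filterByExpr and tested on the whole table with edgeR 4.0.16 (R 4.3.3): quasi-likelihood F test, TMM factors, group as the only term, 2-sided, Benjamini-Hochberg adjustment over 13809 genes, threshold 0.05. Fold changes are KO over CTRL, with standard errors from the coefficient and its F value. CPM used TMM-scaled library sizes; shares and ratios used raw counts. The 12 measures per library were compared by exact permutation of the difference in means over all 293930 splits into 9 and 12, 2-sided, with Benjamini-Hochberg adjustment over the 12. The edgeR step was tested on simulated counts. DESeq2 1.42.0, other normalizations, no filter, covariates and left-out libraries were the alternatives.

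Named genes are the 6 members and, by rule, the 2 mitochondrial and 2 other genes whose log2 CPM follows theirs most closely. Other mitochondrial genes are named for context. The members, lists and measures were chosen with earlier results of these data known. The description of CTRL replicate 3, the nearest genes of each member and the other values without that library were added after its values were seen. Of the RefSeq list, 0 Ensembl IDs matched the table, so lists of nuclear genes and cell type markers could not be used. No pair of libraries in a group agreed within sampling noise (lowest chi-square per degree of freedom 29.2).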

Additional observations from a re-analysis of the deposited data

Results flagged for a closer look

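CTRL replicate 3 lay far from the other controls in the log2 ratio of CYTB to the summed cytochrome oxidase genes, at -3.24, where the next lowest control was at -2.63. The gap to that control took 0.524 of the whole range of the group, past the limit of Dixon's test at the 95% level for 9 samples. In CTRL, 18 quantities were examined in this manner and 1 went past the limit, where chance gives about 1 in 20. The KO group, with 12 libraries, was not examined this way.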

How the results depend on the processing

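The number of genes called and the number of members called were 0 in each of 30 alternative fits (lowest adjusted p of a member 0.460, with the replicate block). The log2 changes of COX1, COX2, COX3 and CYTB were positive in all 30, with COX1 from 0.15 to 0.30, COX2 from 0.018 to 0.21, COX3 from 0.024 to 0.21 and CYTB from 0.26 to 0.48. Leaving out libraries moved ATP8 between -0.026 and 0.12 (the latter without CTRL replicate 1 and KO replicate 8) and ATP6 between -0.0060 and 0.18; ATP8 was below 0 without CTRL replicate 9, KO replicate 5 or KO replicate 6 (-0.0011, -0.0047 and -0.026) and ATP6 without KO replicate 6. The median log2 change of the members ran from 0.021 to 0.21. The 12 measures kept their direction and did not pass under difference of medians, without CTRL replicate 1 and KO replicate 8, and with each library left out (lowest adjusted p 0.0996, without CTRL replicate 9), and the summed share likewise against counts outside the mitochondrial genome. The order of the 6 members per length was the same with shared bases left out. Unadjusted p was under 0.05 for 977 genes, and for 1576 without a filter, 592 with the log2 W share as covariate and 1517 with the replicate block.

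With the replicate number as a block (replicate block), the median log2 change of the members was 0.19 and CYTB stood at 0.45 (edgeR adjusted p = 0.460), with no call changed. For same-numbered libraries the labels name no pairing. Their deviations from the group means correlated between -0.42 and 0.44, over 0.1 in 6 of 9 pairs. Of the 9 CTRL libraries, 1 correlated best with the KO library of its number. The descriptions and column headers number some libraries otherwise than the titles. By those numbers, chosen after seeing the data, 6 of 8 pairs correlated over 0.1 (-0.17 to 0.44). Of these 8 CTRL libraries, 2 correlated best with the KO library of their number. The block by those numbers gave a median of 0.19 with 0 members called (lowest edgeR adjusted p = 0.620). Whether libraries of the same number shared an origin cannot be told from these correlations. Depth did not limit these genes, with at least 8353 counts each per library; the spread between libraries did, and changes smaller than the intervals given cannot be seen.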
